A study of Mus musculus with 4 samples.

Results

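Mechanosensitive ion channels are membrane pores that open when the membrane is stretched or when force reaches them through the matrix and the cytoskeleton, and they turn that force into an ion current. The 9 genes described here encode such channels or the proteins they work with: Piezo1, Piezo2, Trpv4, Trpm7, Trpc1, Pkd1, Pkd2, Tmem63a and Tmem63b. They were chosen by symbol as members of known channel families, with earlier results of these data known, and each was found once among 21862 symbols left in each library after duplicated ones were dropped. Of the 9 genes, 7 were expressed above an FPKM of 2 in all 4 libraries, and Trpv4 and Trpc1 were not.

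N31 is a line of mouse neural progenitor cells (NPCs) that were obtained by differentiating iPSCs, and its RNA was sequenced. Cells of all 4 libraries carried the Dox-inducible factors Oct4, Klf4, c-Myc and Sox2 and a blasticidin-resistance gene in the Oct4 locus, and they were cultured without EGF or bFGF on matrices of 0.5 or 12 kPa that were laid over dishes coated with type I collagen. Control NPCs were the N31 cells, and Srf-knockdown NPCs (called knockdown NPCs here) were N31 cells that expressed 1 short hairpin, shSrf#1, from an H1 promoter in a retroviral vector after puromycin selection. Whether the control cells carried an empty or unrelated hairpin vector is not given in the sources used here. Each of the 4 conditions had 1 library, so no difference between conditions has a replicate check, no p-value is given, and values are from a single library throughout.

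FPKM, the unit of the deposited values, divides the reads of a gene by its transcript length and by the mapped reads of the library. This scaling alone does not correct for the composition of a library or for GC content, which limits comparisons between genes and between libraries. The libraries held an estimated 29100000 and 24100000 reads in control NPCs at 0.5 and 12 kPa, and 45000000 and 62300000 in knockdown NPCs. At these depths the expressed channels had at least 1221 reads each by the same estimate. Srf, the knockdown target, reached 34.4 and 35.6 FPKM in control NPCs and 16.2 and 17.4 in knockdown NPCs. Of 10 neural progenitor markers, 6 passed an FPKM of 2 in all libraries, with a summed FPKM of 1561 to 1786 in control and 2448 to 2469 in knockdown NPCs that was mostly Vim, while Sox1 and Hes5 were listed at 0 in every library. Of 8 mesenchymal markers, 7 passed (summed FPKM 2534 to 2706 and 2680 to 2746), so the expression of the labelled cell type's markers was mixed. Of 6 neuronal markers 4 passed (40.3 to 44.1 and 58.5 to 60.7), with Rbfox3 at 0. This sum was mostly Map2, with log2 ratios of knockdown over control of 0.79 at 0.5 kPa and 0.51 at 12 kPa. In the same order, Snap25 had -0.52 and -0.60, Syt1 -0.09 and -0.36, and Tubb3 0.02 and 0.58, so these markers had no common direction. None of 6 endothelial markers (1.35 to 1.48 and 5.97 to 6.03, Tie1 at 0) or 5 pluripotency markers (3.94 to 4.41 and 3.79 to 4.51) passed. The endothelial sum was mostly Emcn (5.29 and 4.92 in knockdown NPCs). In bulk RNA, fewer cells of a type and less RNA per cell cannot be told apart, and the part that these markers have in the channel values was not tested.

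The proteins fall into families with different jobs. Piezo1 and Piezo2 are large cation channels opened directly by membrane tension, Piezo1 in many tissues including neural progenitors and Piezo2 best known in touch and proprioception. Trpv4, Trpm7 and Trpc1 belong to the TRP family. Pkd1 and Pkd2, the polycystins, form a receptor and channel complex of the primary cilium, and Tmem63a and Tmem63b are animal relatives of the plant OSCA channels that respond to osmotic stress.

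The levels of the 7 expressed channels differed by about an order of magnitude within a library. In control NPCs the order by FPKM was Pkd2, Piezo1, Tmem63a, then Trpm7 and Tmem63b, whose values at the 2 stiffnesses overlapped, then Pkd1 and Piezo2. In knockdown NPCs it was Tmem63b, Piezo1, then Tmem63a and Pkd2, which overlapped, then Trpm7, Pkd1 and Piezo2. Pkd2 was the most abundant member in control NPCs and Tmem63b in knockdown NPCs. The summed FPKM of the 9 genes was 182 and 182 in control NPCs at 0.5 and 12 kPa and 172 and 169 in knockdown NPCs, so the sum moved less than the values of several members.

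**Figure D1:**
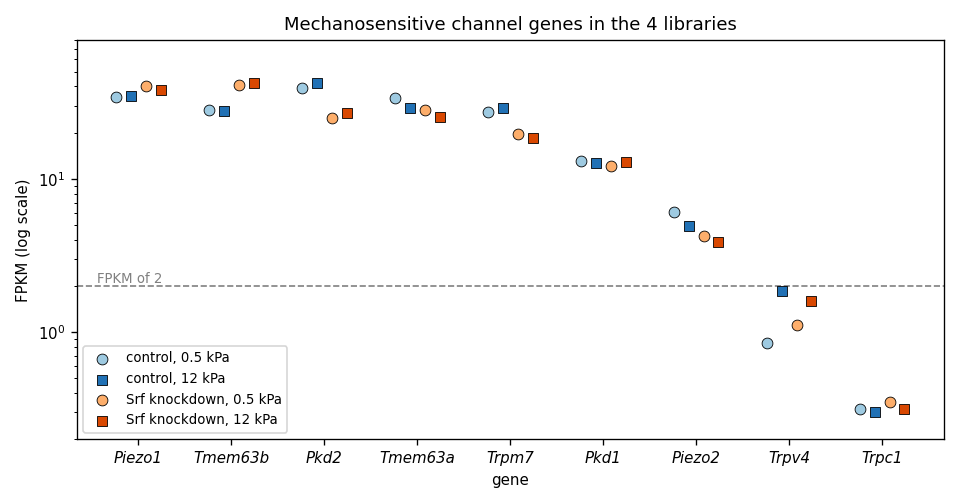
FPKM of the 9 channel genes (log scale on the vertical axis) in the 4 libraries, with 1 point for each library: circles 0.5 kPa, squares 12 kPa, blue control and orange knockdown NPCs. Piezo1, Pkd2, Tmem63a, Tmem63b and Trpm7 lie between 18.4 and 41.9, and Trpv4 and Trpc1 lie under the dashed line at an FPKM of 2. Values of the 2 colours do not overlap for any expressed channel but Pkd1. Of all genes, 39.8% had both knockdown values above both control values and 37.6% had them below.

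Piezo1, on chromosome 8 of mm10 (122481698 to 122551329, minus strand), stood at 33.9 and 34.4 FPKM in control NPCs at 0.5 and 12 kPa and 40.2 and 37.8 in knockdown NPCs. Both knockdown values lay above both control values, and the wider gap was that at 0.5 kPa. Piezo2, on chromosome 18 (63010213 to 63387716), had 6.04 and 4.91 in control and 4.25 and 3.88 in knockdown NPCs, the lowest of the expressed members in every library and with both knockdown values below both control values. Piezo1 was therefore 5.62 and 7.01 times as abundant as Piezo2 in control NPCs and 9.46 and 9.74 times as abundant in knockdown NPCs.

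Trpm7, a cation channel fused to a protein kinase that also carries magnesium, lies on chromosome 2 (126791558 to 126876261, minus strand) and had an FPKM of 27.4 and 29.0 in control and 19.7 and 18.4 in knockdown NPCs. Trpv4, a calcium-permeable channel that responds to osmotic swelling and warmth, was on chromosome 5 (114622152 to 114658435, minus strand) and had 0.851 and 1.87 in control and 1.12 and 1.59 in knockdown NPCs. Its highest value was that of control NPCs at 12 kPa and its lowest that of control NPCs at 0.5 kPa, which were based on an estimated 136 and 75 reads. Trpc1, a subunit that joins other TRPC proteins in mixed channels, was on chromosome 9 (95705072 to 95750386, minus strand) and had 0.316, 0.303, 0.351 and 0.315 in the same order of libraries, from an estimated 20.6 to 55.3 reads. These Trpc1 values lay close together, and their log2 ratios had counting errors of 0.29 to 0.43.

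Pkd1 encodes polycystin-1, a very large receptor-like membrane protein, and lies on chromosome 17 (24548689 to 24596514, plus strand). Its FPKM was 13.1 and 12.6 in control and 12.1 and 12.8 in knockdown NPCs, which was the narrowest spread among the expressed members. Pkd2, on chromosome 5 (104453982 to 104505819, plus strand), encodes polycystin-2, the channel-forming partner, and had 39.1 and 41.9 in control and 25.03 and 27.0 in knockdown NPCs. The 2 partners therefore differed: the values of Pkd2 separated by knockdown, and those of Pkd1 did not. The ratio of Pkd2 to Pkd1 was 2.99 and 3.33 in control and 2.07 and 2.11 in knockdown NPCs.

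Tmem63a, on chromosome 1 (180942286 to 180975106, plus strand), had an FPKM of 33.7 and 29.1 in control and 28.0 and 25.1 in knockdown NPCs, lower at 12 than at 0.5 kPa in both. Tmem63b, on chromosome 17 (45660172 to 45686343, minus strand), had 28.0 and 27.5 in control and 40.9 and 41.9 in knockdown NPCs. The order of these 2 related channels thus differed between control and knockdown, with a ratio of Tmem63a to Tmem63b of 1.20 and 1.06 in control and 0.686 and 0.599 in knockdown NPCs, while their sum was 61.8 and 56.6 in control and 68.9 and 67.0 in knockdown NPCs.

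**Figure D2:**
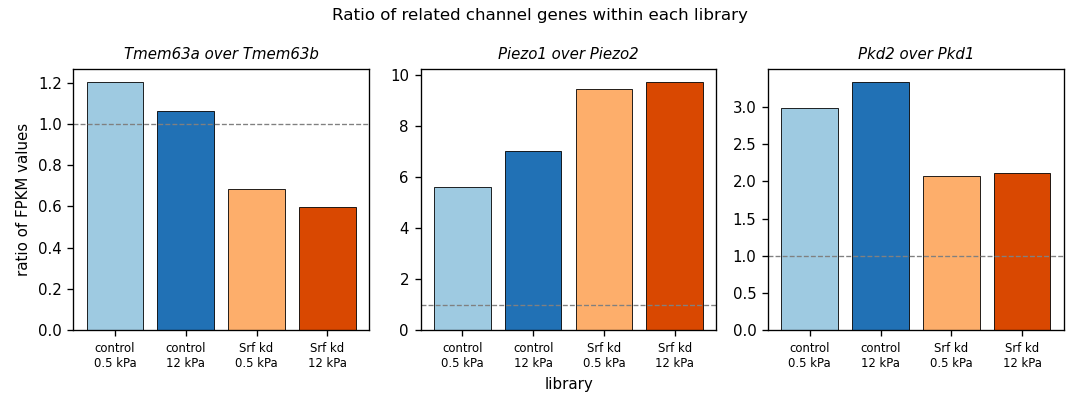
Ratio of FPKM values of related channels within each library (vertical axis), with 1 bar for each library: blue control and orange knockdown NPCs, light 0.5 and dark 12 kPa. The dashed line is a ratio of 1, which Tmem63a over Tmem63b crosses between control (1.20 and 1.06) and knockdown NPCs (0.686 and 0.599).

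Between Srf-knockdown and control NPCs, differences were read past 1.1-fold, the threshold of the study's methods, among the 10489 genes that exceeded an FPKM of 2 throughout. This threshold is low, and it was passed by 73.1% of genes at 0.5 kPa and 73.6% at 12 kPa in either direction. At 0.5 kPa, 4 of the 7 expressed channels were lower in knockdown NPCs, against 35.7% of all genes, and 2 were higher, against 37.4%, of which Piezo1 was inside the threshold once GC content was taken into account. At 12 kPa the same 4 were lower, against 35.9% of all genes, and 1 was higher, against 37.6%. At both stiffnesses Pkd2, Trpm7, Piezo2 and Tmem63a were lower (28.8% of all genes) and Tmem63b was higher (30.3%). Both knockdown values lay above both control values in 2 channels, Piezo1 and Tmem63b, against 39.8% of all genes, and below them in 4, against 37.6%. No expressed channel had both 12 kPa values above both 0.5 kPa values (6.32% of all genes) or below them (5.55%). These shares do not cover the 2 channels under the minimum, of which Trpv4 had them above. Trpc1 had them below by only 0.315 (knockdown, 12 kPa) against 0.316 (control, 0.5 kPa), from an estimated 55.3 and 25.9 reads. No stiffness direction is given for Trpc1. The median log2 ratio of the 7 channels was -0.27 and -0.22, beside 0.011 and 0.0098 over all genes. The members' medians were thus lower than those of all genes, and this difference was not tested.

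On the log2 scale, Pkd2 stood at -0.64 on the 0.5 kPa matrix (counting error 0.027, from the estimated reads) and at -0.64 on the 12 kPa matrix (0.026), and 15.2% and 15.9% of genes had a larger ratio in either direction. That of Trpm7 was -0.48 and -0.65 (0.027 and 0.026), and of genes 26.3% and 15.0% had a larger one. Tmem63b was higher by 0.54 and 0.61 (0.035 and 0.036), with 21.4% and 17.7% of genes beyond it. By the mean of both stiffnesses, as deposited, Pkd2, Tmem63b and Trpm7 had the largest knockdown ratios of the expressed channels (-0.64, 0.58 and -0.57), while at 0.5 kPa that of Piezo2 was larger than that of Trpm7, and after the GC centring described further on Piezo2 and Tmem63a also exceeded Trpm7.

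Piezo2 had a log2 ratio of -0.51 and -0.34 (0.047 and 0.050) and Tmem63a one of -0.27 and -0.22 (0.035 and 0.037). Piezo1 was past the threshold at 0.5 kPa, with 0.24 (0.020), and just inside it at 12 kPa, with 0.14 (0.021). Pkd1 was within the threshold at both, with -0.11 and 0.02. Counting errors cover the sampling of reads only, not culture or library preparation, so their smallness is no measure of how well a ratio would repeat. Trpv4 and Trpc1 were too low to be called, and the log2 ratios of Trpv4 were 0.40 at 0.5 kPa and -0.23 at 12 kPa, with 95% counting intervals of -0.00082 to 0.80 and -0.52 to 0.06.

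**Figure D3:**
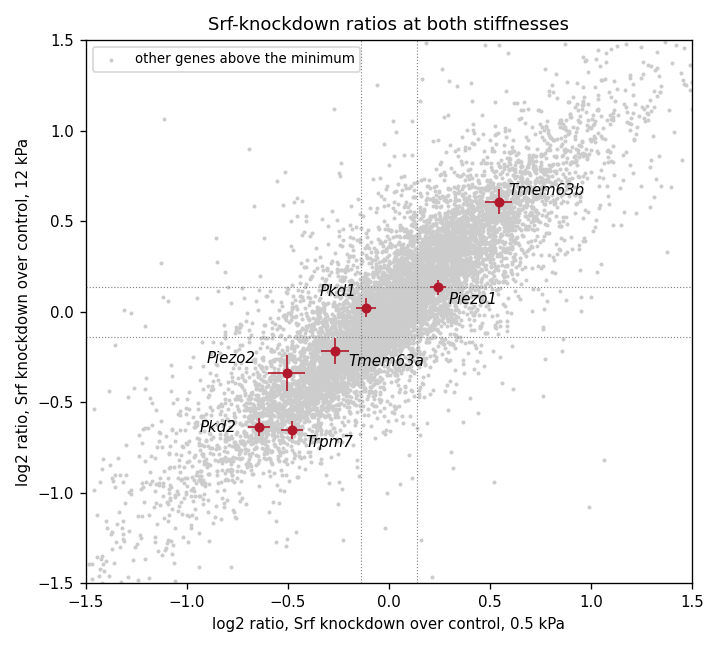
log2 ratio of FPKM between Srf-knockdown and control NPCs at 0.5 kPa (horizontal) and 12 kPa (vertical), with each of the 10489 genes a grey point and the 7 expressed channels in red with 95% counting intervals. Dotted lines are 1.1-fold, 209 genes lie beyond the axes, and Pkd2, Trpm7, Piezo2 and Tmem63a lie below the lines on both axes and Tmem63b above them.

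Knockdown ratios moved with the GC content of transcripts. Across genes, a correlation that treats genes as points and not as replicates, Spearman's rho between the ratio and the GC content was 0.265 at 0.5 kPa and 0.412 at 12 kPa over 10320 genes, while for the stiffness ratios it was -0.128 in control and 0.340 in knockdown NPCs. The 4 libraries share the genes and differ in depth, and the part of GC content in the members' ratios was not tested. The members cover a wide range of GC content, from 40.1% in Trpm7 to 59.0% in Piezo1. Each ratio was therefore also centred on the median of genes with a similar GC content, in 50 bins.

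After centring, the mean of the 2 knockdown ratios was -0.55 for Pkd2, against -0.64 before. For Trpm7, the member with the lowest GC content, it was -0.30 instead of -0.57. Piezo2 kept -0.46 (-0.42 before), Tmem63a had -0.40 (-0.24 before) and Tmem63b 0.40 (0.58 before). Piezo1 had -0.04 instead of 0.19, and at 12 kPa its ratio changed sign, from 0.14 to -0.15, so that no direction is given for Piezo1. Pkd1 had -0.22 instead of -0.04, with a change of sign at 12 kPa from 0.02 to -0.17, and it is likewise given no direction. Directions of the other 5 channels were the same with and without centring at both stiffnesses.

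**Figure D4:**
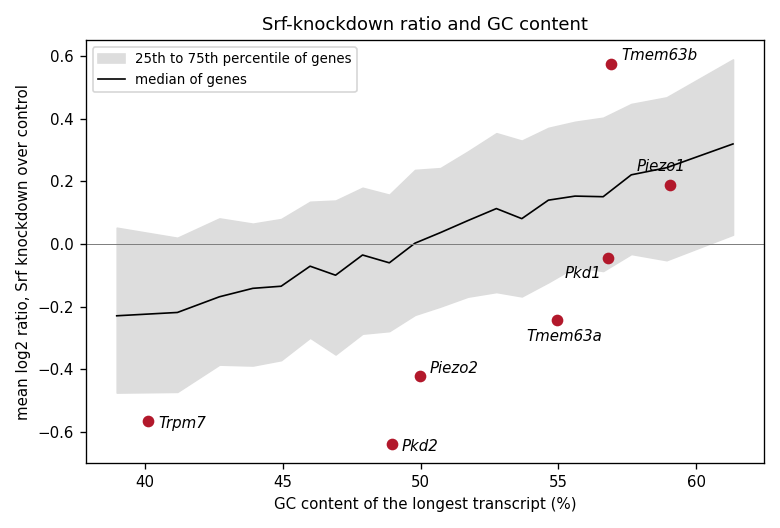
Mean log2 ratio of Srf-knockdown over control NPCs (vertical) against the GC content of the longest transcript (horizontal, %). The black line is the median and the grey band the 25th to 75th percentile of genes in bins of 516 genes, and red points are the 7 expressed channels: Pkd2 and Piezo2 (GC 49.0% and 49.96%) lie below the line and Tmem63b (56.9%) above it, while Piezo1 (59.0%) lies near it.

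Related channels were also compared with each other. The knockdown log2 ratio of Tmem63b exceeded that of Tmem63a by 0.81 at 0.5 kPa and 0.82 at 12 kPa, and by 0.84 and 0.76 after centring, so this gap was much the same. That of Piezo1 exceeded that of Piezo2 by 0.75 and 0.47, and by 0.62 and 0.21 after centring. That of Pkd2 was below that of Pkd1 by a difference of -0.53 and -0.66, and -0.31 and -0.37 after centring. These gaps were not tested, and their sizes are descriptions.

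Some of these genes overlap a neighbour on the other strand. Library preparation kept the strand, and the strand setting of the counting is not given in the sources used here, so reads of the partners could be shared. Tmem63b overlaps Mrpl14, a mitochondrial ribosomal protein gene, by 622 bases, and Mrpl14 had an FPKM of 84.7 and 101 in control and 129 and 145 in knockdown NPCs, a log2 ratio of 0.60 and 0.51 beside 0.54 and 0.61 for Tmem63b. Between stiffnesses, the log2 ratio of Mrpl14 was 0.26 in control and 0.17 in knockdown NPCs, beside -0.03 and 0.04 for Tmem63b. Whether reads of Mrpl14 add to the Tmem63b values was not tested. Piezo1 overlaps Ctu2 by 1395 bases (Ctu2 55.9, 43.3, 30.9 and 35.4, log2 ratios -0.86 and -0.29), and Pkd1 overlaps Tsc2 by 699 bases (24.6, 24.2, 27.6 and 28.0, log2 ratios 0.16 and 0.21). Non-coding genes overlap as well. The span of Pkd1 shares 13056 bases with the lncRNA LOC115488769 on the same strand. That of Piezo2 shares 14605 bases with the lncRNA Gm36651, and that of Piezo1 shares 107 with the snRNA Gm26497, strands not given. No FPKM was found for these, and their part was not tested.

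Srf, the transcription factor that was knocked down, binds the CArG box, a short element with an A and T core. RefSeq windows from 250 bases before to 50 after the start site (GRCm38.p6) were found for 8 of the 9 channels, all but Piezo2, and both strands were searched. Of these, 1 held the box without a mismatch, Tmem63a, and 2 held it when 1 mismatch in the 6 inner positions was allowed, with Trpv4 the second. Among all 32851 windows, 1.63% held an exact box and 9.98% one with at most 1 mismatch. Srf's own window, shown as a gene with a box pair, held 2. The stretches around these boxes follow, in lower case with the box in capitals, on the strand of the gene and at chr1:180942398-180942427 (plus strand, box at -110 from the start site), chr5:114658571-114658600 (minus strand, -169) and chr17:46556215-46556244 (minus strand, first box at -82).
Tmem63a: agcgaagagtCCAAATTAGGtaacgcgtgg
Trpv4: tttctaccagCCTTTGATGGgtgtgagctg
Srf: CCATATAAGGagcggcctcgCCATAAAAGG
The Tmem63a stretch lies within the annotated span of Tmem63a. A match of letters is a description, and 1 of 8 windows is too few to compare with the background.

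The other 6 windows had no match, which says only that these letters are not in this stretch. For Pkd2 the stretch before the start site, chr5:104459207-104459456, lies inside the gene's annotated span, which starts at 104453982. That of Pkd1, chr17:24549700-24549949, also lies inside its span, which starts at 24548689. Bases around the outer starts of these 2 spans were not searched. Of the windows with no match, those of Trpm7 and Piezo1 are shown because their deposited ratios had opposite signs and their transcripts lie at opposite ends of the members' GC range. The 250 bases before the start site are at chr2:126876262-126876511 (minus strand) for Trpm7, with a GC content of 60.4% and 26 CG pairs, and at chr8:122551330-122551579 (minus strand) for Piezo1, with 74.0% and 26.
Trpm7: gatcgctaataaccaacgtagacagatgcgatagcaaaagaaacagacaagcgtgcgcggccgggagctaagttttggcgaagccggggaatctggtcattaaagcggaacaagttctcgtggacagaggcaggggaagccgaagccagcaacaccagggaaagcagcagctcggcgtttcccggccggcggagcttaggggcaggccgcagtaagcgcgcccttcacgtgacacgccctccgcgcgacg
Piezo1: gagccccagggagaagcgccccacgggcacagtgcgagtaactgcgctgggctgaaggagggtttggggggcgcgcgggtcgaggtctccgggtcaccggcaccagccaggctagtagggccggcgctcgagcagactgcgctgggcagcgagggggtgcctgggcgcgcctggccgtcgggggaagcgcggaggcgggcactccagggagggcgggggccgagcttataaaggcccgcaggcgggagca

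Ratios between stiffnesses were smaller. In control NPCs, 2 channels passed 1.1-fold in either direction, against 34.7% of all genes. Both were lower at 12 than at 0.5 kPa, Piezo2 and Tmem63a (16.9% of all genes), and none was higher (17.9%). In knockdown NPCs 1 channel passed, against 30.6% of all genes, and it was Tmem63a, lower at 12 kPa (13.0%), while none was higher (17.6%). Tmem63a was past the threshold in both populations, as were 3.24% of all genes in this direction, and no member was higher in both (5.10%). The median log2 ratio of the members was -0.03 in control and -0.09 in knockdown NPCs, beside 0.00305 and 0.0064 over all genes.

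Piezo2 had a log2 stiffness ratio of -0.30 (counting error 0.053) in control NPCs, where 10.9% of genes had a larger ratio in either direction, and -0.13 in knockdown NPCs, which is inside the threshold. Tmem63a had -0.21 (0.040) in control NPCs, with 19.8% of genes beyond it, and -0.16 (0.031) in knockdown NPCs. The 95% counting intervals of both Tmem63a ratios, -0.29 to -0.13 and -0.22 to -0.10, included the 1.1-fold threshold. Piezo1 had 0.02 and -0.09, Trpm7 0.08 and -0.09, Pkd1 -0.05 and 0.08, Pkd2 0.10 and 0.11 and Tmem63b -0.03 and 0.04, all inside the threshold. Whether a stiffness ratio differed between control and knockdown NPCs was not tested, as no population had a second library.

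Trpv4 had the widest stiffness ratio of the 9 channels, at a level under the minimum. Its FPKM at 12 kPa was 2.19 times that at 0.5 kPa in control NPCs (log2 ratio 1.13, 95% counting interval 0.73 to 1.54) and 1.42 times in knockdown NPCs (0.50, 0.22 to 0.79). The counting intervals lay above 0 in both populations, and variation between cultures is not in them.

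**Figure D5:**
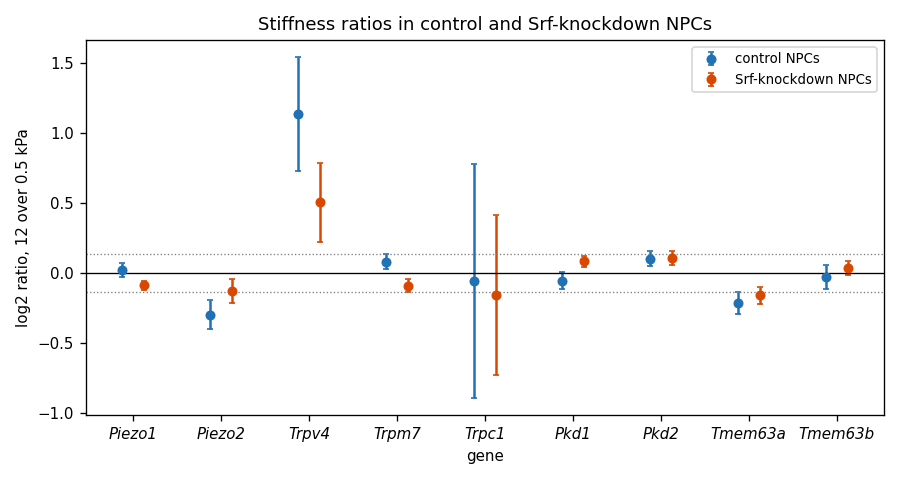
log2 ratio of FPKM at 12 over 0.5 kPa (vertical) for the 9 channels, blue control and orange knockdown NPCs, with 95% counting intervals as bars and 1.1-fold as dotted lines. Trpv4 lies highest, at 1.13 and 0.50 from few reads, and Tmem63a lies below the lower line in both populations, at -0.21 and -0.16.

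Pkd2 had the widest range of log2 FPKM over the 4 libraries, 0.745, among the expressed members. The 5 genes whose pattern over these 4 libraries was most like it were Robo1, Zfp955a, Fads3, Gbp2b and Zcchc10, in which the largest deviation of centred log2 FPKM from that of Pkd2 in any library was 0.0122 to 0.0231. The likeness describes 4 values, and 205 of 10488 other genes (1.95%) lay within 0.1 of Pkd2 in every library.

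Other channel families and genes related to these channels were taken as 9 further lists with 72 genes, of which 28 were above the minimum. Counts and directions in these lists are from the deposited values, without GC centring. At both stiffnesses 13 of the 28 were lower in knockdown NPCs (46.4%) and 4 were higher (14.3%), beside 28.8% and 30.3% of all genes, and their median log2 ratios were -0.16 and -0.06 at the softer and the stiffer matrix. Most other channels were not above the minimum in all 4 libraries. Above it were none of 3 tension-gated K2P potassium channels and none of 6 other polycystins. Of 22 other TRP channels 2 were above it, and of 9 other TMEM63 and TMC genes 2. The minimum also leaves out genes above 2 in control NPCs only. In both control libraries 3 other TRP channels were above 2, among them Trpv2, described further on. The gene with the highest mean FPKM was Mcoln1, a lysosomal channel, among the other TRP genes (31.3, 31.5, 32.4 and 38.2), Pkd2l2 among the polycystins (2.24, 2.19, 1.92 and 1.80) and Kcnk2, or TREK-1, among the K2P channels (1.56, 2.80, 1.41 and 1.48), in the order control 0.5, control 12, knockdown 0.5 and knockdown 12 kPa. Mcoln1 was thus at the level of the more abundant members, while Pkd2l2 and Kcnk2 were near an FPKM of 2. The other TRP gene above the minimum was Trpm4, a calcium-activated cation channel (20.5, 15.6, 15.4 and 17.3). Its deposited knockdown log2 ratios were -0.41 at 0.5 kPa and 0.15 at 12 kPa, the latter just past the threshold. After GC centring their mean was -0.30, and no direction is given for Trpm4.

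Of the TMC genes, Tmc6 (21.3, 21.6, 18.2 and 14.1) and Tmc4 (5.79, 6.40, 3.86 and 4.59) were lower in knockdown NPCs at both stiffnesses. Of 5 LRRC8 subunits of the volume-regulated anion channel 3 were above the minimum, and 2 were lower at both, among them Lrrc8d (13.6, 15.9, 12.3 and 12.5). Lrrc8b (3.25, 2.90, 1.38 and 1.39) was above 2 in control NPCs only and falls outside these counts. Of 5 genes listed as PIEZO modulators 4 were above the minimum. Stom, a membrane protein, was higher (19.6, 20.2, 28.1 and 24.8), and Atp2a2, the calcium pump SERCA2, was lower (89.3, 93.0, 79.4 and 80.3). The modulators thus had no common direction.

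Store-operated calcium entry had 4 of 5 genes above the minimum. Orai3, a pore subunit, was higher (19.5, 20.7, 30.4 and 30.3), and Stim2, a calcium sensor of the endoplasmic reticulum, was lower (25.7, 26.4, 15.3 and 14.6). Gja1, connexin 43, was the gene with the largest knockdown ratio of its list (397, 334, 187 and 199), with log2 ratios of -1.09 and -0.74. Among 13 genes of calmodulin, calpain and calcineurin-NFAT signalling, 11 were above the minimum, 5 were lower at both stiffnesses and 1 was higher. Ppp3cb, a catalytic subunit of calcineurin, was lower (60.1, 57.9, 38.3 and 33.3), and Calm2, the most abundant (434, 459, 486 and 459), was not past the threshold at both.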

How the data were processed

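The authors trimmed single-end reads of stranded mRNA libraries with cutadapt 1.9.1, mapped them to mm10 with TopHat2 2.1.0 and Bowtie2 2.2.8, and calculated the deposited FPKM with Cufflinks 2.2.1 (versions from the submitters' processing notes) on the GENCODE M14 annotation. Values were used as deposited. The 63 symbols listed more than once (135 of 21997 rows) were left out. Members and lists were chosen with earlier results of these data known. Ratios are log2 of FPKM with no pseudocount, for genes above 2 in all 4 libraries, called past 1.1-fold (log2 0.14).

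Depth was estimated from values on whole-read steps (43.9% of 1047 low genes, those at an FPKM below 0.1, tolerance 0.05), and reads per gene from transcript lengths less 200 nucleotides. At these depths 3 reads on 2000 nucleotides are an FPKM of 0.0267 to 0.0691. Lengths and GC content came from GENCODE M1 transcripts (98.4% of genes), and positions and promoter windows from RefSeq on GRCm38.p6. Calculations were tested on simulated data. Alternatives were log2(FPKM + 1), no minimum, 75th-percentile scaling, 1.5-fold and GC centring in 50 bins. In other lists, the named genes are the most abundant and the one with the largest mean knockdown ratio. Trpm4, Lrrc8b and Trpv2 are named in addition, as are the 5 genes most like the widest-ranging member. The software was matplotlib 3.10.9, scipy 1.17.1, pandas 2.3.3 and numpy 2.4.6 in Python 3.11.15.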

Additional observations from a re-analysis of the deposited data

How the results depend on the processing

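The 1.1-fold calls depended mostly on the threshold. At 1.5-fold, 0 channels were called for stiffness in control and 0 in Srf-knockdown NPCs, 1 for knockdown at 0.5 kPa (Pkd2), 3 at 12 kPa (Trpm7, Pkd2 and Tmem63b) and 1 at both (Pkd2), against 2, 1, 6, 5 and 5 at 1.1-fold. Of all genes, 9.19% were higher and 9.28% lower in knockdown past 1.5-fold at 0.5 kPa, and 10.2% and 8.88% at 12 kPa. The share past it at both was not calculated. For stiffness, 0.858% of all genes were higher and 0.963% lower past 1.5-fold in control NPCs. In Srf-knockdown NPCs these shares were 0.458% and 0.324%, so few genes of any kind passed. For stiffness in Srf-knockdown NPCs, the count of 1 was 3 with no minimum (Trpv4, Trpc1 and Tmem63a), 2 with 75th-percentile scaling (Piezo2 and Tmem63a) and 2 with GC centring (Piezo1 and Tmem63a). Beside these, 25.9% of all genes were higher and 18.8% lower with no minimum. The shares were 16.4% and 14.4% with scaling, and 14.6% and 12.3% with GC centring. GC centring gave 1 higher and 5 lower channels at 0.5 kPa, and 1 higher and 6 lower at 12 kPa, instead of 2 and 4, and 1 and 4, beside 34.7% higher and 35.5% lower of all genes at 0.5 kPa and 34.6% and 35.0% at 12 kPa after centring. The other counts were within 1.5 times their value. Among 28 ratios of the expressed channels, GC centring moved 16 beyond their counting interval, while log2(FPKM + 1), no minimum and 75th-percentile scaling moved 0. No paired analysis was possible because no condition had replicates whose numbers could pair libraries. An additive fit of knockdown and stiffness, which takes the difference between stiffnesses as error, was not run. Depth limits Trpv4 and Trpc1 and also calls near the threshold, such as those of Piezo1 for knockdown at 12 kPa, Tmem63a for stiffness and Piezo2 for stiffness in Srf-knockdown NPCs, whose counting intervals include it, and variation between cultures is not measured for any channel.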

Other observations

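Trpv2, a calcium-permeable TRP channel that is also described as stretch-sensitive, stood at 14.2 and 13.1 FPKM in control NPCs at 0.5 and 12 kPa and 2.33 and 1.83 in Srf-knockdown NPCs. It was chosen for mention after its values were seen, and it falls outside the counts because its value in Srf-knockdown NPCs at 12 kPa is below an FPKM of 2. Its ratio to control was 6.11-fold lower at 0.5 kPa and 7.12-fold lower at 12 kPa (log2 ratio -2.61 and -2.83), from an estimated 1123 and 854 reads in control and 284 and 310 in Srf-knockdown NPCs. This gap is wider than that of any of the 9 channels.

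Emcn, an endothelial marker, had an FPKM of 0.806 and 0.844 in control and 5.29 and 4.92 in Srf-knockdown NPCs, while Tie1 was listed at 0 in all 4 libraries. Of the 6 neural progenitor markers above the minimum, 3 were higher and 2 lower in Srf-knockdown NPCs at both stiffnesses. Sox2 (4.29 and 5.49 in control, 19.1 and 20.4 with knockdown), Pax6 (2.62 and 3.46, 6.49 and 6.78) and Vim (1696 and 1481, 2380 and 2396) were the higher ones, Nes (51.6 and 36.1, 16.4 and 15.5) and Notch1 (18.4 and 20.6, 10.8 and 13.98) the lower ones, and Sox9 was inside the threshold at both. All cells carried inducible Sox2 and Oct4, and whether reads of these add to the marker values of the same genes was not tested. Emcn and Tie1 were chosen after their values were seen, and their part in the channel values was not tested.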
